A study of Mus musculus with 77 samples.

Results

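A set of 9 transcription factors of the pancreatic duct and the pancreatic progenitor, Sox9, Foxa2, Prox1, Pdx1, Nkx6-1, Gata6, Hnf4a, Onecut1 and Onecut2, was followed in mouse ductal organoids in which the endocrine master regulator Ngn3 (gene Neurog3) had been switched on. They were chosen by name, are 9 of the 46078 genes in the count table, and all 9 were among the genes tested at both time points. The organoids, three-dimensional cultures grown from the ducts of adult C57BL/6 mice, were infected with a pair of lentiviral vectors of a doxycycline-dependent (Tet-on) system. The inducible vector gave GFP alone (GFP only), GFP with wild-type Ngn3 (WT), or GFP with 6S-A Ngn3, a form in which 6 serines followed by proline are changed to alanine so that they cannot be phosphorylated. GFP-positive cells were sorted in pools of 50 cells after 2 days of induction (GFP only, WT and 6S-A, 18 pools each) and after 8 days (5 WT and 6 6S-A pools). At 8 days the controls were cells without GFP colour from the WT and the 6S-A cultures (no-color, 6 pools each), and there was no GFP only group. Each of the 7 groups held 3 biological replicates, and the pools of a replicate were technical repeats that were summed. Replicate 3 of each 8-day group came from passage 5 and all other replicates from passage 2.

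In the embryo these factors overlap in the multipotent cells of the pancreatic bud, where Pdx1, Sox9, Foxa2, Gata6, Hnf4a, Onecut1, Nkx6-1 and Prox1 are needed in different combinations for the organ to form. Later they part. Sox9 and Onecut1 stay with the ducts, Pdx1 and Nkx6-1 become strongest in β cells, and Foxa2 and Prox1 are carried on into endocrine cells. Ngn3 lies downstream of Sox9 and Onecut1 in the embryo and commits a progenitor to the endocrine fate.

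Of the 77 libraries, 76 were kept, with 1501002 to 9202142 reads on genes each, or 2397470 to 26627347 per biological replicate. The 1 library left out, a WT pool of 8 days, had 849278 reads. Neurog3, which counts the transgene together with the mouse gene, had 1 or 2 reads in each GFP only replicate and stood at 89.5 to 205 CPM (counts per 1000000 reads on genes, scaled by TMM, a trimmed-mean scaling between samples) in WT and 99.8 to 198 CPM in 6S-A at 2 days. It thus separated the Ngn3 groups from the controls, but WT and 6S-A overlapped, so those labels are not checked by it. At 8 days it stood at 6.89 to 46.4 CPM in WT, 9.86 to 15.4 in 6S-A and 0 to 0.991 in no-color cells. Summed CPM of 12 ductal markers were 12150 to 21500 at 2 days, against at most 7.6 for 9 acinar, 2.4 for 6 mesenchymal, 7.62 for 4 immune and 9.77 for 3 endothelial markers. Of these other cell types, 1 acinar marker was called lower in WT and 1 endothelial marker higher in 6S-A at 2 days. Of the pairs of technical repeats of a replicate, 6 differed far less than the rest (chi-square per gene 1.61 to 2.44, against 5.41 to 42.3 in the other 129), and leaving out 1 repeat of each such replicate changed no call of a member. Each pool holds many cells, so fewer cells that express a gene and less RNA in each of them cannot be told apart.

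Positions of the members are given from the GENCODE annotation of GRCm38, the build of the counts. Sox9 (ENSMUSG00000000567) is at chr11:112782224-112787760, Foxa2 (ENSMUSG00000037025) at chr2:148042877-148046969, Prox1 (ENSMUSG00000010175) at chr1:190118035-190170714 and Pdx1 (ENSMUSG00000029644) at chr5:147269959-147275848. Nkx6-1 (ENSMUSG00000035187) is at chr5:101658139-101664996, Hnf4a (ENSMUSG00000017950) at chr2:163506808-163572910 and Onecut1 (ENSMUSG00000043013) at chr9:74861921-74891781. For Onecut1, 2171 of its 4113 exon bases, 52.8%, also belong to exons of the noncoding gene Gm20649 on the same strand, and Gm20649 had 0 reads in every group. How reads in the shared bases were counted was not tested. Exons of the antisense gene Prox1os cover 1.59% of the Prox1 exon bases. Whether strand was used in counting is not given in the sources used here, so reads of Prox1 and of Prox1os cannot be told apart in the shared bases.

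Stretches before the RefSeq start sites of Prox1 and Foxa2, the members that passed the test as higher, and of Onecut1 and Pdx1, which were lower in all 6S-A replicates at 2 days, are shown here 5′ to 3′ on the strand of the gene (GRCm38.p6). They are chr1:190170828-190171077 (minus strand), chr2:148046970-148047219 (minus), chr9:74861671-74861920 (plus) and chr5:147269847-147269958 (plus). For Pdx1 the 112 bases that precede the GENCODE gene are given. Capitals mark E-boxes, the motif CANNTG to which basic helix-loop-helix proteins such as Ngn3 bind, and which reads the same on both strands.
Prox1: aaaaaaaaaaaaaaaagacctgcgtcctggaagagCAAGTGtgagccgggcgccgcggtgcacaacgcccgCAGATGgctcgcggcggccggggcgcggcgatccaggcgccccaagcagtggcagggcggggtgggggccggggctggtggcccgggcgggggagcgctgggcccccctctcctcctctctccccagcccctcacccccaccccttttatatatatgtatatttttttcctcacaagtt
Foxa2: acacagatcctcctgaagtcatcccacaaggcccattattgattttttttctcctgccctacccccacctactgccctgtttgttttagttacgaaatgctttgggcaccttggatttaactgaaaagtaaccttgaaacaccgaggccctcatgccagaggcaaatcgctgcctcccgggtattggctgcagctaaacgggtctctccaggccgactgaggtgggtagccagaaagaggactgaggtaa
Onecut1: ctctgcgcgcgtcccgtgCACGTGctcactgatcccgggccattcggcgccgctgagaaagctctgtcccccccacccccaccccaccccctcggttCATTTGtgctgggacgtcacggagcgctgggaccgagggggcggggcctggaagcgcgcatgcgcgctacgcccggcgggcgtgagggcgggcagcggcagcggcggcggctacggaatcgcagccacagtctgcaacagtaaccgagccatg
Pdx1: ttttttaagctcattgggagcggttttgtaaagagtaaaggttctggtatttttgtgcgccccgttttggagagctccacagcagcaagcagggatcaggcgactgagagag
In the 250 bases before the start, Prox1 held 2 E-boxes, at positions -215 and -179, and Onecut1 held 2, at -232 and -153. Pdx1 held 3, all of them beyond the stretch shown, Hnf4a held 1, and Foxa2 and Nkx6-1 held 0. The one at -179 in Prox1 has the letters CAGATG. Among 32851 RefSeq promoters of this length 66.2% held an E-box and 14.4% held CAGATG or its reverse complement CATCTG, which is part of the E-box count. A match describes the letters of the window and is no evidence of binding.

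Without Ngn3, the 9 factors differed widely in level. Per kilobase of exon, Sox9 was highest in GFP only cells (88.8 ± 13.7 CPM per kb, SD, n = 3), followed by Foxa2 (36.2 ± 6.64), Onecut2 (30.4 ± 13.9), Hnf4a (18.1 ± 1.19), Gata6 (7.47 ± 1.4), Pdx1 (5.04 ± 1.02), Prox1 (3.22 ± 0.804), Onecut1 (0.81 ± 0.208) and Nkx6-1 (0.502 ± 0.148). The replicates of Foxa2 and Onecut2, of Onecut2 and Hnf4a, and of Pdx1 and Prox1 overlapped, so the order of those neighbours is not separated. In 6S-A cells Prox1 (8.37 ± 1.22 CPM per kb) stood at the level of Gata6 (6.82 ± 1.58), with overlapping replicates.

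**Figure D1:**
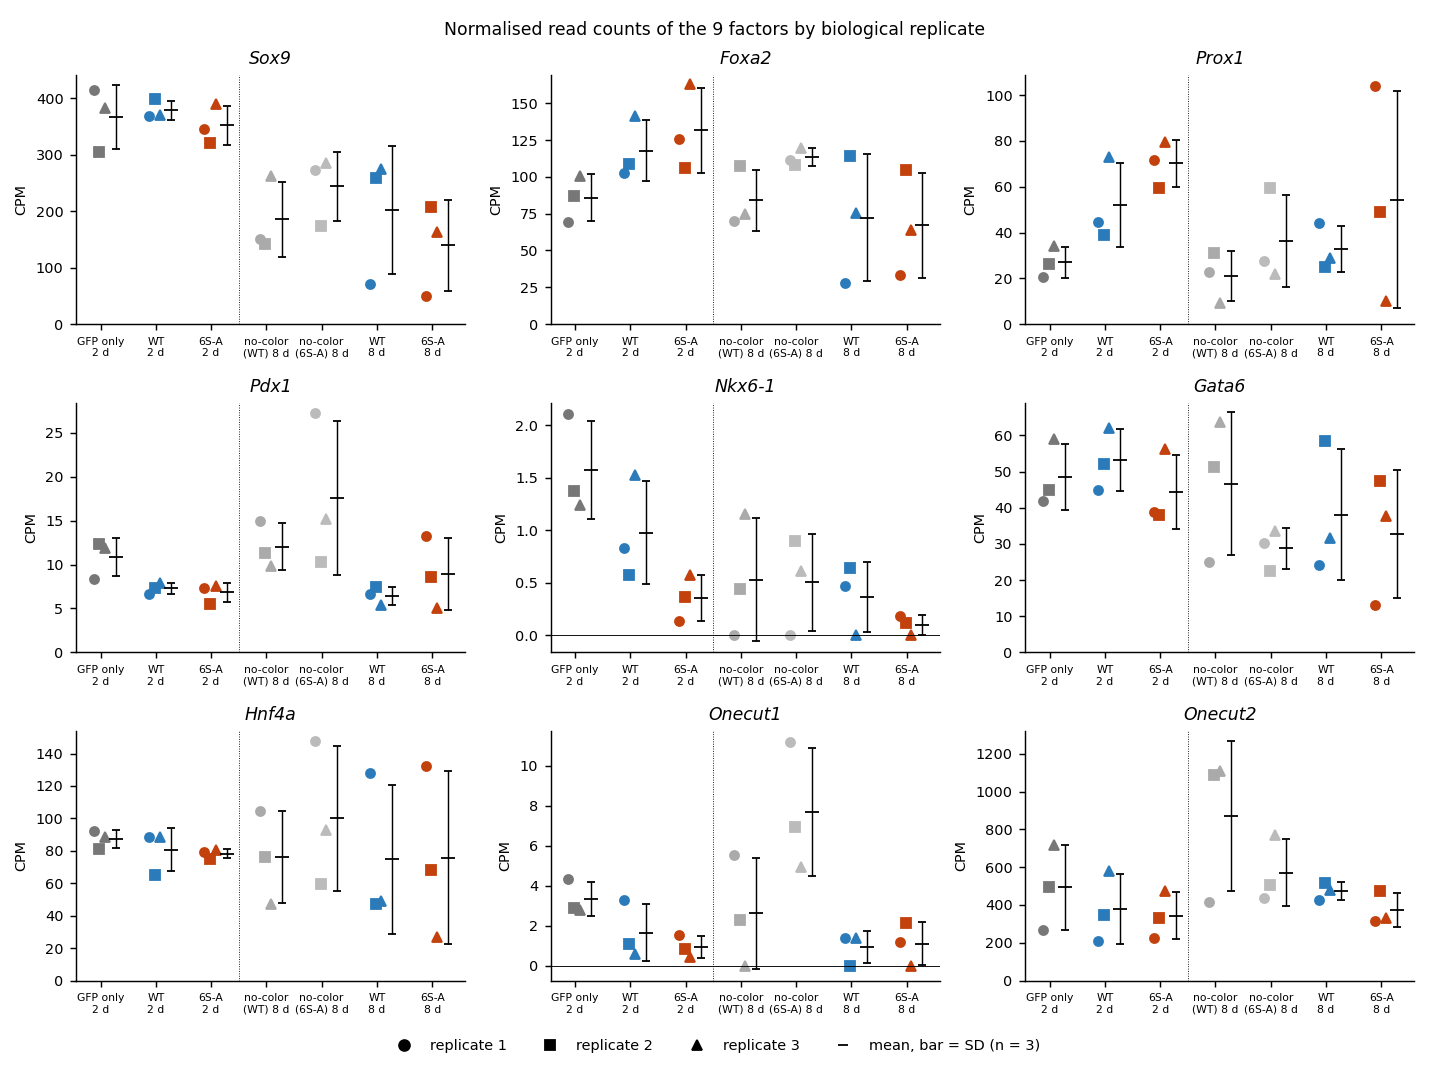
CPM (y axis, linear) of each factor in the 7 groups (x axis), with 1 symbol per biological replicate and the mean ± SD (n = 3) beside them. At 2 days Prox1 and Foxa2 lie above GFP only in all WT and 6S-A replicates and Pdx1 lies below in all of them, whereas most factors spread more widely at 8 days.

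The first comparison asked what Ngn3 did to these factors within 2 days. With WT Ngn3, Prox1 rose and no member passed the test as lower. With 6S-A Ngn3, Prox1 and Foxa2 rose and Nkx6-1 fell. Sox9, Gata6 and Hnf4a had log2 fold changes between -0.16 and 0.13 in both comparisons, while Pdx1, Onecut1 and Onecut2 had lower means with both forms. The test was edgeR's quasi-likelihood test on the summed counts with Benjamini-Hochberg adjustment over 23844 genes, and a gene was called at an adjusted p under 0.05. It called 1 of 9 members higher and 0 lower in WT, where 6.56% of all genes tested were called higher and 5.22% lower. In 6S-A it called 2 higher and 1 lower, against 9.43% and 8.63% of all genes. The median log2 fold change of the 9 was -0.11 in WT and -0.16 in 6S-A, beside 0.01 and 0.02 over all genes tested.

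The replicate numbers pair the samples, and with the replicate number as a block 4 members were called in WT (2 higher and 2 lower) and 6 in 6S-A (2 higher and 4 lower), out of 18% and 24.8% of all genes called in either direction. Foxa2 (adjusted p = 0.0049), Onecut1 (0.0438) and Onecut2 (0.00567) were then added in WT, and Onecut1 (0.00283), Onecut2 (0.000738) and Pdx1 (0.0353) in 6S-A, by edgeR. Fitting the 2-day and the 8-day samples together, with 1 shared estimate of the spread, left 0 of 9 called in either comparison. In that fit 2.23% of all genes were called in WT and 4.48% in 6S-A.

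**Figure D2:**
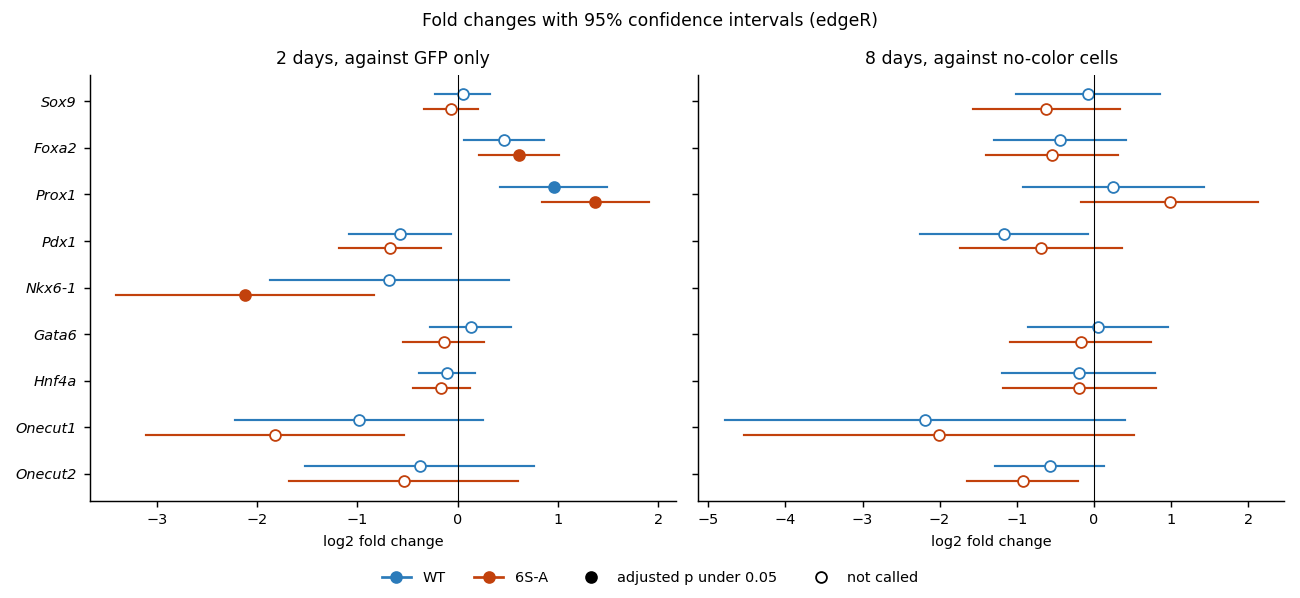
Log2 fold changes (x axis) of the 9 factors in WT (blue) and 6S-A (orange) cells against GFP only cells at 2 days (left) and no-color cells at 8 days (right, without Nkx6-1, which had few reads), with 95% confidence intervals and filled points where the edgeR adjusted p was under 0.05. Filled points are Prox1 in both 2-day comparisons and Foxa2 and Nkx6-1 in 6S-A at 2 days, and no point is filled at 8 days.

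Prox1, a homeodomain factor present in pancreatic progenitors and later in islet cells, had the lowest adjusted p of the 9 in both comparisons. It was at 20.5, 26.4 and 34.0 CPM in the GFP only replicates, at 44.6, 38.7 and 73.1 CPM in WT and at 71.8, 59.3 and 79.5 CPM in 6S-A. All WT and all 6S-A replicates lay above all GFP only replicates. The rise was 1.94-fold in WT (log2 fold change 0.95 ± 0.25 SE, edgeR adjusted p = 0.0242) and 2.59-fold in 6S-A (1.37 ± 0.25, adjusted p = 0.00179). In the single pools Prox1 ranged from 14.6 to 44.3 CPM in GFP only (median 26.6), from 21.3 to 103 in WT (median 50.3) and from 42.2 to 115 in 6S-A (median 70.3). The call in 6S-A held under 14 of 15 other settings, and the call in WT under 9 of 15. It was lost in WT without GFP only replicate 1 (0.78) or 2 (0.93), without WT replicate 3 (0.63), with spike-in scaling (0.79), with the first technical repeat alone (0.81) and in the joint fit (0.95, all on the log2 scale). Reads counted for Prox1os were 22 in GFP only, 74 in WT and 170 in 6S-A over 3 replicates. Those counted for Prox1 were 1995, 3359 and 4504, so both counts were higher with Ngn3. From which strand the reads counted for Prox1os came was not tested, nor was the part of the antisense gene in the Prox1 count.

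Foxa2, a forkhead pioneer factor of endoderm, rose in 6S-A and did not pass the test in WT. Its CPM were 69.5, 87.2 and 101 in GFP only, 103, 109 and 141 in WT and 126, 106 and 163 in 6S-A. The lowest WT and 6S-A replicates lay above the highest GFP only replicate, in both cases by a small margin. The log2 fold change was 0.46 ± 0.18 in WT (adjusted p = 0.147) and 0.61 ± 0.18 in 6S-A (adjusted p = 0.0355), a 1.52-fold rise. Replicate 3 was the highest in each of the 3 groups, a difference that the block takes out. Without the block, the 6S-A call was lost without GFP only replicate 1 (log2 fold change 0.46) or 2 (0.60), without 6S-A replicate 1 (0.64) or 3 (0.42), and with spike-in scaling (0.47).

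**Figure D3:**
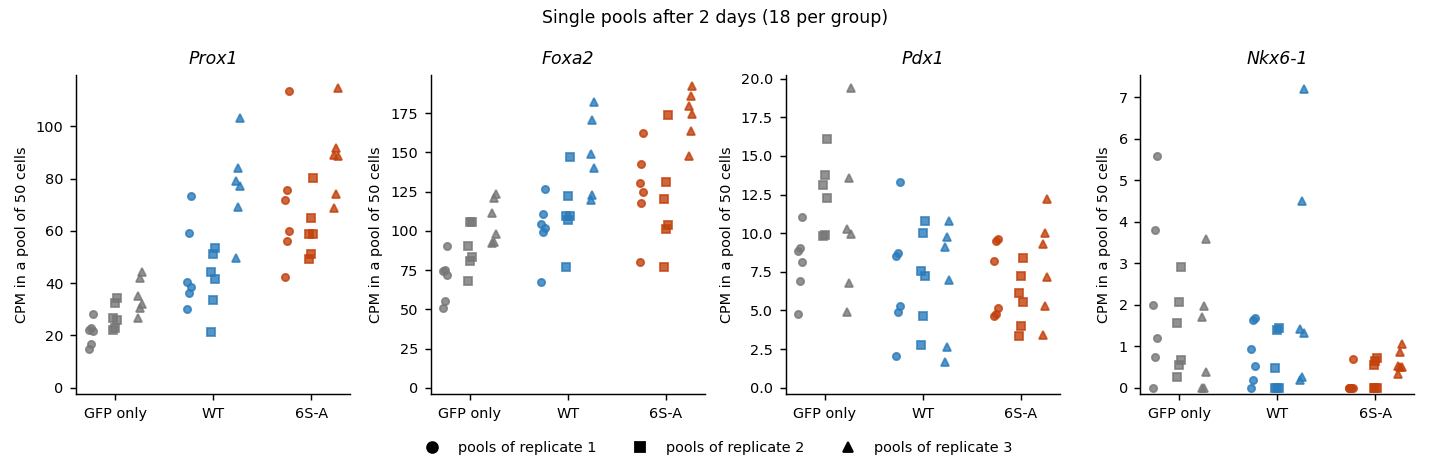
CPM (y axis) of Prox1, Foxa2, Pdx1 and Nkx6-1 in the single pools of 50 cells after 2 days, 18 in each group (x axis), with a symbol for each biological replicate. The highest GFP only pool of Prox1 (44.3 CPM) lies only just above the lowest 6S-A pool (42.2 CPM), whereas pools of Pdx1 overlap over most of their range and Nkx6-1 is at 0 in part of the pools of all 3 groups.

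Pdx1, the homeodomain factor that the pancreas needs to form and that β cells use to express insulin, pointed the other way. It was at 8.34, 12.3 and 11.9 CPM in GFP only, at 6.6, 7.37 and 7.91 in WT and at 7.32, 5.56 and 7.58 in 6S-A. All 6 induced replicates lay below all GFP only replicates, with the nearest values being 7.91 and 8.34. The log2 fold change was -0.57 ± 0.24 in WT (adjusted p = 0.154) and -0.68 ± 0.24 in 6S-A (adjusted p = 0.0653), which did not pass the test, and the pools overlapped (4.77 to 19.4 CPM in GFP only, 1.69 to 13.3 in WT, 3.33 to 12.2 in 6S-A). Pdx1 in 6S-A passed under 3 of 15 other settings, namely the block, DESeq2 and leaving out GFP only replicate 1.

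Nkx6-1, a homeodomain factor of progenitors and β cells, was close to the limit of detection in this tissue. It had 58, 36 and 27 reads in the GFP only replicates (2.1, 1.38 and 1.24 CPM), 21, 11 and 31 in WT (0.83, 0.575 and 1.52 CPM) and 3, 7 and 13 in 6S-A (0.137, 0.364 and 0.576 CPM). The 6S-A replicates lay below all GFP only replicates, and the WT replicates overlapped with them. The fall in 6S-A was 4.35-fold (log2 fold change -2.12 ± 0.60, adjusted p = 0.0234), and the WT value was -0.68 ± 0.55 (adjusted p = 0.553). Nkx6-1 was read in 15 of 18 GFP only pools, 14 of 18 WT pools and 10 of 18 6S-A pools. The call was lost without GFP only replicate 1 (log2 fold change -1.87) without 6S-A replicate 1 (-1.73) or 2 (-2.12), with the first technical repeat alone (-1.84) and in the joint fit (-2.11).

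Onecut1 and Onecut2 are cut-homeodomain paralogues that differed by a wide margin in level. Onecut1, which acts upstream of Ngn3 in the embryonic pancreas, had 119, 75 and 61 reads in GFP only (4.32, 2.87 and 2.81 CPM), 83, 21 and 12 in WT (3.28, 1.1 and 0.59 CPM) and 34, 16 and 10 in 6S-A (1.56, 0.832 and 0.443 CPM). The 6S-A replicates lay below all GFP only replicates, while WT replicate 1 fell among them. The log2 fold change in 6S-A was -1.82 ± 0.60 with an adjusted p = 0.05, at the threshold and not under it, and it passed under 7 of 15 other settings. Over those 15 settings it ran from -5.14 to -1.48. In WT it was -0.99 ± 0.57 (adjusted p = 0.353) and passed without WT replicate 1 (-1.99) and with the block.

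Onecut2 (ENSMUSG00000045991, chr18:64340020-64400987) was read far more often, at 267, 492 and 719 CPM in GFP only, 211, 346 and 579 in WT and 224, 329 and 472 in 6S-A. In all 3 groups replicate 1 was lowest and replicate 3 highest, so that the groups overlapped. Within GFP only, the SD between replicate means was 0.78 on the log2 scale and that of pools within a replicate 0.35. Within each replicate number the level was lower than in GFP only, by a log2 difference of -0.34, -0.51 and -0.31 in WT and of -0.25, -0.58 and -0.61 in 6S-A. The log2 fold change in WT was -0.38 ± 0.49 (adjusted p = 0.755) without the block and -0.38 ± 0.09 with it. In 6S-A it was -0.54 ± 0.49 (adjusted p = 0.561) and -0.49 ± 0.09. Without the block Onecut2 was also called with the first technical repeat alone, at -0.87 in WT and -0.82 in 6S-A.

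Sox9, Gata6 and Hnf4a had the smallest fold changes of the 9. Sox9, the SRY-box factor that marks ducts and progenitors, was at 415, 305 and 383 CPM in GFP only, 368, 399 and 370 in WT and 346, 321 and 390 in 6S-A. All groups overlapped, and the 95% intervals of the log2 fold change ran from -0.23 to 0.32 in WT and from -0.34 to 0.21 in 6S-A. Gata6 (ENSMUSG00000005836, chr18:11052064-11085635), a zinc-finger factor of endoderm, was at 41.9 to 59.0 CPM in GFP only, 45.0 to 62.1 in WT and 38.0 to 56.2 in 6S-A, with log2 fold changes of 0.13 ± 0.19 and -0.14 ± 0.19. Hnf4a, a nuclear receptor of endodermal epithelia, was at 80.9 to 92.1 CPM in GFP only, 65.3 to 88.5 in WT and 75.1 to 80.3 in 6S-A. Its 6S-A replicates lay below all GFP only replicates, but the log2 fold change was only -0.16 ± 0.13 (adjusted p = 0.476), and in WT it was -0.11 ± 0.13 (adjusted p = 0.729). The signs of the small Sox9 and Gata6 values changed between scalings, being negative in WT with spike-in scaling (-0.16 and -0.04).

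Whether the phosphosite mutant and the wild-type protein differ in their effect on these factors was addressed by setting 6S-A against WT. At 2 days edgeR called 0 of 9 members (0.0126% of all genes were called), and DESeq2 called 0. At an unadjusted p under 0.05 there were 1380 of 23844 genes and 1 member. The 1 was Nkx6-1 (log2 fold change -1.44 ± 0.60, adjusted p = 0.815), with values from -1.97 to -0.60 over 15 other settings. Prox1 was 0.42 ± 0.24 higher in 6S-A on the log2 scale, with a 95% interval from -0.11 to 0.94 and overlapping replicates. In all 3 same-numbered pairs Prox1 was higher in 6S-A, and Nkx6-1, Onecut1 and Gata6 were lower. How many of all genes had the same sign in all 3 pairs was not counted. The Nkx6-1 values rest on 3, 7 and 13 reads in 6S-A. Foxa2 differed by 0.15 ± 0.18 (interval -0.25 to 0.55) and Sox9 by -0.12 ± 0.13 (interval -0.39 to 0.16). The differences of Pdx1 (-0.10 ± 0.24), Hnf4a (-0.06 ± 0.13), Gata6 (-0.27 ± 0.19), Onecut1 (-0.83 ± 0.60) and Onecut2 (-0.16 ± 0.49) did not pass either.

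Other progenitor and ductal factors were lower at 2 days more often than higher. Of 20 further progenitor and ductal factors, 19 were tested, and 2 were called higher and 9 lower in WT and 2 and 10 in 6S-A, with a median log2 fold change of -0.77 and -0.89. Hhex, a homeobox gene of early endoderm, fell from 256 ± 28.7 CPM to 93.1 ± 21.1 in WT and 72.5 ± 21.6 in 6S-A (log2 fold change -1.46 and -1.83). Glis3, a zinc-finger gene linked to neonatal diabetes, fell from 90.6 ± 5.13 to 34.9 ± 4.02 and 26.6 ± 4.76 CPM (-1.37 and -1.78). Tead1 (0.55 and 0.65) and Tead2 (0.52 and 0.60), the DNA-binding partners of Yap1, rose. Yap1, named after its value was seen, was at -0.34 in WT and fell by 0.59 on the log2 scale in 6S-A (adjusted p = 0.00611). With spike-in scaling, under which the median of all genes was -0.17 in WT and -0.15 in 6S-A, 0 of these factors were called higher and 3 and 7 lower.

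Paralogues of the members moved in both directions. Of 11 paralogues 8 were tested, with 1 called higher and 1 lower in WT and 1 and 3 in 6S-A. In WT only 1 was called without GFP only replicate 2, GFP only replicate 3 or WT replicate 1. Foxa3 rose from 11.9 ± 1.81 CPM to 38.3 ± 14.8 in WT and 47.9 ± 10.4 in 6S-A (log2 fold change 1.69 ± 0.25 and 2.01 ± 0.26), beside 0.46 and 0.61 for Foxa2, and this difference was not tested. Foxa1 was at -0.35 ± 0.25 in WT and fell in 6S-A (-0.87 ± 0.25, adjusted p = 0.0255). Gata5, a relative of Gata6, was at -0.97 ± 0.43 in WT (adjusted p = 0.188) and fell in 6S-A (-2.004 ± 0.45, adjusted p = 0.0058). Foxa1 and Gata5 were chosen for naming after their values were seen. Onecut3 fell in both (-1.13 ± 0.30 and -1.63 ± 0.31), from 11.2 ± 3.68 CPM to 5.11 ± 1.04 and 3.62 ± 0.805.

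**Figure D4:**
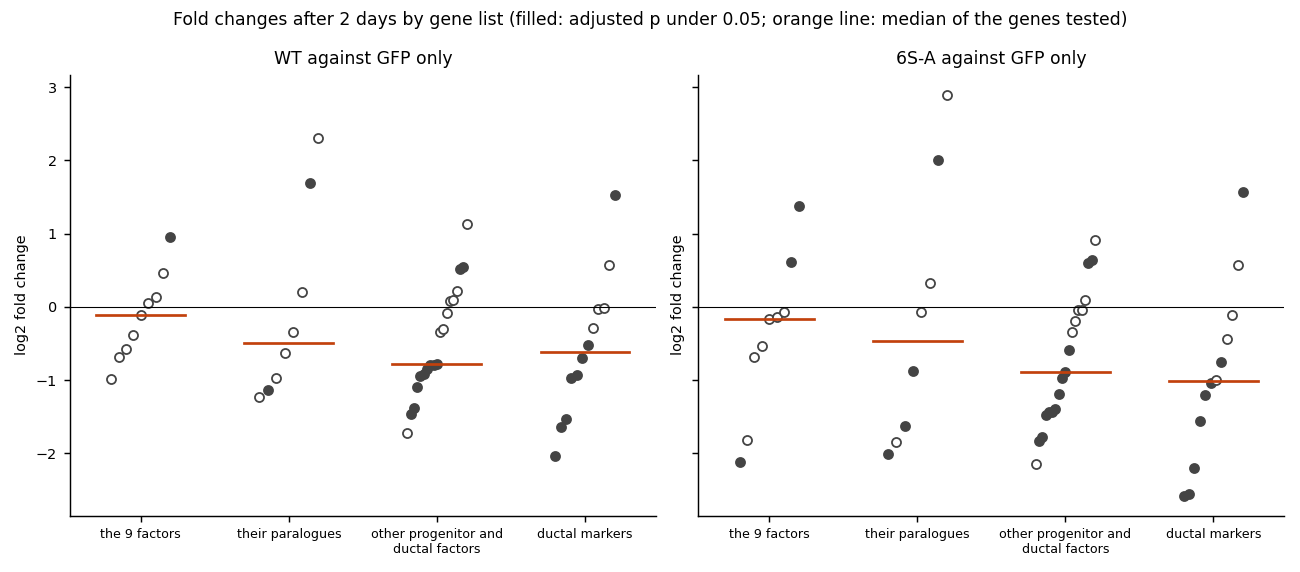
Log2 fold changes (y axis) against GFP only at 2 days of the 9 factors, their paralogues, the other progenitor and ductal factors and the ductal markers (x axis), with WT on the left and 6S-A on the right. Each point is a gene, filled where the edgeR adjusted p was under 0.05, and the line is the median of the genes tested, which is -0.11 and -0.16 for the 9 factors and -0.77 and -0.89 for the other factors.

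Markers of cell state moved in the same libraries. Of 12 ductal markers, 7 were called lower and 1 higher in each comparison. Krt19, a duct keratin, fell from 633 ± 42.7 CPM to 220 ± 57.0 in WT and 107 ± 24.0 in 6S-A, and Muc1 and Car2 fell as well (log2 fold changes of -1.63 and -2.04 in WT and -2.19 and -2.55 in 6S-A). Prom1 rose from 546 ± 94.0 CPM to 1575 ± 41.8 and 1632 ± 193. Of 18 endocrine markers 14 were tested, of which 13 rose in WT (8 without GFP only replicate 1) and 14 in 6S-A. Neurod1, a direct target of Ngn3, went from at most 0.0363 CPM in GFP only to 22.2 to 136 CPM in WT and 52.2 to 97.3 CPM in 6S-A. Rfx6 was at most at 0.0764 CPM in GFP only, at 15.2 to 96.8 in WT and at 58.5 to 81.7 in 6S-A. It is a transcription factor of endocrine cells. The part of these changes in the values of the 9 factors was not tested.

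The second time point asked whether the levels differed after 8 days, with the mean of both no-color groups as the control. No member passed the test. In WT edgeR called 0 of 9 higher and 0 lower, where 0.741% and 0.173% of 19696 genes were called, and in 6S-A 0 and 0, where 1.37% and 0.34% were. At an unadjusted p under 0.05 there were 2070 of 19696 genes in WT and 2378 in 6S-A. Of the members there was 1 in each (Pdx1 in WT and Onecut2 in 6S-A), and DESeq2 called 0. Against WT, 6S-A called 0 members (0% of all genes), with 0 at an unadjusted p under 0.05 (415 of 19696 genes) and 0 by DESeq2. The no-color groups, cells without GFP from the WT and from the 6S-A cultures, gave 0 members against each other (0% of all genes). At an unadjusted p under 0.05 there were 0 members and 1649 of 19696 genes, and DESeq2 called 0 members. By edgeR's adjusted p, the number of members called was also 0 in each of these 8-day comparisons without replicate 3, from passage 5.

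Pdx1 separated WT from the no-color cells at 8 days without passing the test. It was at 15.0, 11.4 and 9.83 CPM in the no-color cells of WT cultures, at 27.3, 10.3 and 15.2 in those of 6S-A cultures, at 6.61, 7.4 and 5.37 in WT and at 13.3, 8.58 and 5.09 in 6S-A. All WT replicates lay below all 6 no-color replicates (log2 fold change -1.17 ± 0.52, adjusted p = 0.435), while 6S-A overlapped with them (-0.69 ± 0.50, adjusted p = 0.659). The value in WT was negative under all 20 other settings, from -1.38 to -0.89, and was called under 0.

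Onecut2 also had its lower means in the GFP-positive cells. It was at 413, 1088 and 1110 CPM and at 435, 505 and 771 CPM in the no-color groups, at 424, 516 and 480 in WT and at 313, 476 and 333 in 6S-A. The groups overlapped. The log2 fold change was -0.57 ± 0.33 in WT (adjusted p = 0.587) and -0.92 ± 0.34 in 6S-A (adjusted p = 0.237). Onecut1 was uneven, with 85, 21 and 0 reads and 183, 77 and 40 reads in the no-color replicates, 15, 0 and 7 in WT and 20, 18 and 0 in 6S-A. Nkx6-1 had 3, 1 and 0 reads in 6S-A, beside 5, 2 and 0 in WT, 0, 4 and 2 in the no-color cells of WT cultures and 0, 10 and 5 in those of 6S-A cultures, so no fold is given or plotted for it at 8 days.

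Within same-numbered pairs at 8 days, Pdx1, Onecut1, Onecut2 and Foxa2 were lower in 6S-A than in the no-color cells of its cultures in all 3 pairs, as was Pdx1 in WT, and Sox9 and Onecut2 were lower in 6S-A than in WT in all 3. How many of all genes were lower in all 3 pairs was not counted, and Onecut1 had 20, 18 and 0 reads in 6S-A. With the replicate block 0 members were called in these comparisons. The share of all genes was 2.4% in WT and 3.57% in 6S-A against no-color cells, and 0% in 6S-A against WT.

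Sox9, Foxa2, Prox1 and Hnf4a differed widely between the replicates of the GFP-positive groups at 8 days. Sox9 was at 71.1, 259 and 276 CPM in WT and at 49.9, 207 and 163 in 6S-A, so replicate 1 was the lowest in both. Foxa2 had the same shape, with 27.8, 114 and 75.2 CPM in WT and 33.0, 104 and 64.1 in 6S-A. Hnf4a had the opposite one, with 128, 47.3 and 49.1 CPM in WT and 133, 68.2 and 26.9 in 6S-A, and Prox1 was highest in replicate 1 as well, at 44.2, 25.1 and 28.8 CPM in WT and 104, 48.9 and 10.03 in 6S-A. In the no-color cells of replicate 1 Sox9 (152 and 274 CPM) and Foxa2 (69.8 and 112) were not as low, whereas Hnf4a stood at 105 and 148 CPM there. The value of 105 CPM rests on 1 of 3 pools, which had 205.8 CPM beside 66.7 and 38.95.

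Endocrine markers differed between the same replicates. Their summed level was 4855, 1071 and 37.4 CPM in WT replicates 1, 2 and 3 and 5244, 2645 and 214 CPM in those of 6S-A, against 3.95 to 17.9 in the no-color cells. Replicate 1, with the highest endocrine sum in both GFP-positive groups, thus had their lowest Sox9 and Foxa2 and their highest Hnf4a and Prox1. These are 6 GFP-positive samples that share 3 replicate numbers, 1 of them from another passage, so no correlation was computed and the part of the endocrine markers was not tested. Gata6 was lowest in replicate 1 of both groups too (24.1 CPM beside 58.6 and 31.6 in WT, 13.2 beside 47.5 and 37.8 in 6S-A) but also in the no-color cells of the WT cultures (24.98 CPM, beside 51.3 and 63.6).

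**Figure D5:**
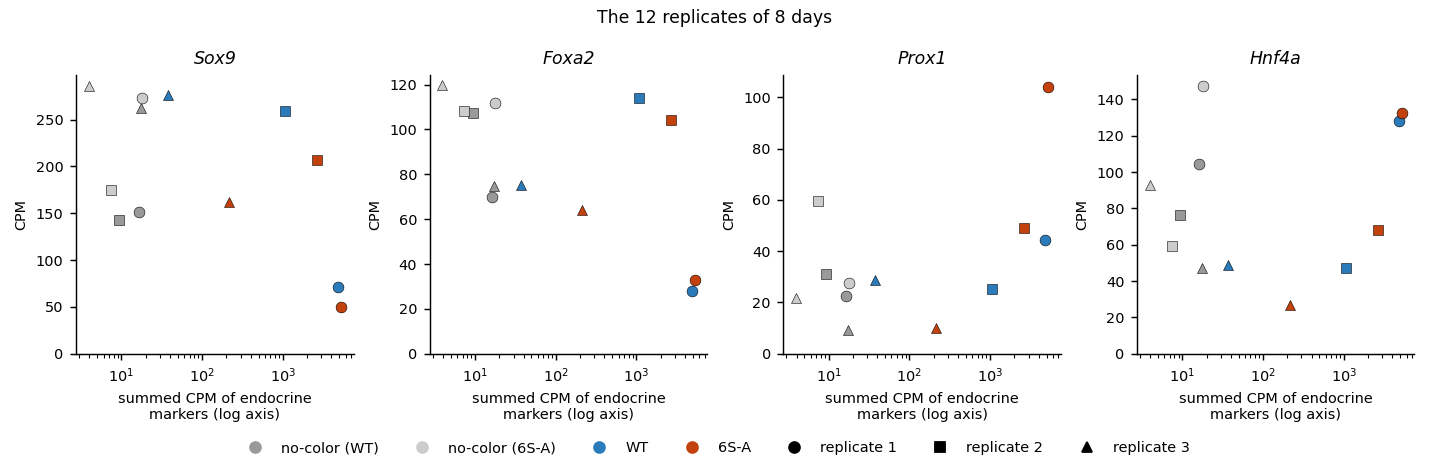
CPM of Sox9, Foxa2, Prox1 and Hnf4a (y axes, linear) in the 12 replicates of 8 days against the summed CPM of the endocrine markers (x axis, log scale), with colours for the groups and symbols for the replicate numbers. Replicate 1 of WT and of 6S-A, at 4855 and 5244 CPM of endocrine markers, has the lowest Sox9 and Foxa2 values of the plot.

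Between the no-color groups, Foxa2 was higher in all replicates of the 6S-A cultures (112, 108.1 and 120 CPM) than in those of the WT cultures (69.8, 107.5 and 74.6 CPM), but the difference did not pass the test (adjusted p = 0.85). Against no-color cells, Foxa2 had a log2 fold change of -0.44 ± 0.40 in WT (adjusted p = 0.77) and -0.55 ± 0.41 in 6S-A (adjusted p = 0.67), opposite in sign to its 2-day values. Without replicate 1 of the same group these values were -0.07 and -0.22. The change of the effect between the time points was itself tested. Its control was GFP only at 2 days and no-color cells at 8 days. For WT and for 6S-A this change therefore cannot tell time from the kind of control. For 6S-A it was -1.16 ± 0.52 for Foxa2 (p = 0.037 in edgeR's test, adjusted p = 0.859), and 0 members were called, with 0.0102% of all 19589 genes called. For WT and for the difference between 6S-A and WT, 0 members were called (0% of all genes in both). At an unadjusted p under 0.05, 0 members passed in either, beside 1024 and 445 of 19589 genes. DESeq2 called 0 members in all 3. Prox1 at 8 days had 0.25 ± 0.55 in WT (adjusted p = 0.925) and 0.98 ± 0.54 in 6S-A (adjusted p = 0.509), and without replicate 1 of the same group these values were -0.06 and 0.08.

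Between the time points themselves edgeR called 0 members. The share of all genes called was 0.0562% higher and 0.112% lower in WT at 8 days, 0.317% and 0.245% in 6S-A, and 0.403% and 0.95% in no-color cells against GFP only cells. At an unadjusted p under 0.05 there were 1707 of 19589 genes in WT, 2440 in 6S-A and 2909 in the controls. Of the members there was 1 in WT, 2 in 6S-A and 1 in the controls, and DESeq2 called 0. The other member in 6S-A was Foxa2. Sox9 was among them each time, and its 8-day replicates lay below all 2-day replicates, with log2 fold changes of -0.91 ± 0.43 in WT (adjusted p = 0.565), -1.34 ± 0.43 in 6S-A (adjusted p = 0.178) and -0.79 ± 0.36 in the controls (adjusted p = 0.31). The 2-day and the 8-day pools came from separate sorts. Some of the 8-day replicates also came from a later passage than the 2-day replicates. In WT, in 6S-A and in the controls, time therefore cannot be told apart from the separate sorts. GFP only and no-color cells are also different kinds of control, so in the controls time and the kind of control cannot be told apart.

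Across all 21 replicates, the levels of the members were compared with each other and with 11338 genes of at least 5 CPM as a description, on log2 CPM (the points share libraries, groups and time points). Sox9 was most like Foxa2 (Pearson's r = 0.784) and Gata6 (0.734), Onecut1 was like Hnf4a (0.671), and the lowest value was between Onecut1 and Gata6 (-0.402). Among other genes, the 2 most like each member were Gas2l1 (0.916) and Rsrp1 (0.916) for Sox9, Zfp444 (0.861) and Insig1 (0.85) for Foxa2, and Vezt (0.873) and Mctp2 (0.866) for Prox1. They were Tnfrsf1a (0.888) and Grb7 (0.883) for Pdx1, Pam (0.854) and Mcur1 (0.813) for Nkx6-1, and Cdc34b (0.894) and Gnai2 (0.879) for Gata6. For Hnf4a they were Wbp1l (0.943) and Zgpat (0.939), for Onecut1 Irak4 (0.911) and Mmp11 (0.896), and for Onecut2 Gclc (0.845) and Rasa2 (0.823).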

How the data were processed

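Pools of 50 sorted cells were turned into cDNA by Smart-seq2 and sequenced as single-end 50-base reads. Per the labels and the study's methods, the authors aligned reads to mm10 with GSNAP and counted them per Ensembl gene with HTSeq (0.5.3p3). The deposited values are raw read counts per gene, not normalised. The strand setting and the treatment of reads with several alignments are not given in the sources used here. Reads without a gene were 14.4% (no feature) and ambiguous reads 8.06% of all reads in the table, and they were left out.

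Libraries were kept with over 1000000 reads on genes, over 10000 detected genes and under 30% spike-in reads. Technical repeats were summed to 3 biological replicates per group, and the genes tested were those read in at least 5 kept libraries of the time point. Counts were fitted with edgeR 4.0.16 (TMM scaling, robust quasi-likelihood test, Benjamini-Hochberg adjustment, threshold 0.05) in R 4.3.3, 1 fit for each time point and 1 for both. The p-values measure the spread between replicates of 1 culture system. CPM in the text use TMM-scaled library sizes, and correlations used a prior count of 2. Every p in the text is from edgeR unless another tool is named. The script was tested on simulated data.

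The replicate numbers, which come from the sample titles, were checked by correlating deviations from the group means. All 9 same-numbered pairs at 2 days (0.124 to 0.472) and all 18 at 8 days (0.136 to 0.631) were above 0.1. Different numbers ran from -0.427 to -0.012 at 2 days (median -0.108) and from -0.436 to 0.154 at 8 days (median -0.201). At 8 days these ranges overlapped. Deviations within a group sum to 0, which by itself pushes different numbers below 0 when same numbers lie above it.

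The members and the gene lists were chosen with earlier results of these data known. Named genes are the 9 members, up to 3 genes per direction and list that were called in both 2-day comparisons without overlap, ranked by mean change, and the 2 genes most like each member. Some genes that this rule names are not reported here. Exon lengths, positions and overlaps are from GENCODE M21 and promoter sequences from a table of RefSeq promoters, in which 6 members were matched. Alternatives were DESeq2 1.42.0, scran 1.30.0, spike-in scaling, other filters, other choices of libraries, the replicate block, each culture's own no-color control, 1 joint fit and leaving out each replicate. Leaving out passage 5 and leaving out technical repeats that lay unusually close were added after seeing the data.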

Additional observations from a re-analysis of the deposited data

Results flagged for a closer look

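The spread of the single pools was examined in 36 sets, the 9 members in the 4 groups of 8 days, and 1 set held a pool far from the others. Hnf4a in the no-color cells of WT cultures reached 205.8 CPM in 1 of 6 pools, while the nearest pool had 82.7 CPM and the lowest 38.9 CPM. In the no-color cells of 6S-A cultures the replicate 1 pools had 123.6, 74.6 and 212.3 CPM. Chance alone marks about 1 in 20 sets of independent values, and the pools of a replicate are not independent.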

How the results depend on the processing

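At 2 days, the number of members called changed with several settings. In WT, where 1 member was called, 0 were called with spike-in scaling, 0 when both time points were fitted together, 2 with no filter on low counts and 4 with the replicate block, and leaving out each replicate gave 0 to 2. In 6S-A, where 3 were called, DESeq2 called 5, the replicate block 6 and the joint fit 0. Of all genes 11.8% were called in WT, 5.11% with spike-in scaling, 2.23% in the joint fit and 10.1% with no filter. With the block it was 18%. In 6S-A 18.1% of all genes were called, beside 21.3% by DESeq2, 24.8% with the block and 4.48% in the joint fit. Between 8 and 2 days in 6S-A, no filter gave 1 call (Sox9, lower) in place of 0. The share of all genes called was 1.93% in place of 0.562%. The block changed no other call of a member, and comparisons between time points could not be fitted with it. With spike-in scaling 1 paralogue, 3 other progenitor and ductal factors and 4 ductal markers were called in WT (2, 11 and 8 with TMM) and 7 other factors in 6S-A (12 with TMM). The joint fit called 1 paralogue, 2 other factors, 4 ductal markers and 8 endocrine markers (13 in the separate fit) in WT, and 1 paralogue (4 in the separate fit) and 6 other factors in 6S-A. Leaving out each replicate gave 1 to 2 paralogues and 8 to 12 endocrine markers in WT. The causes of these differences were not tested.

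Signs turned in small values. With spike-in scaling the log2 fold change in WT was -0.1592 for Sox9 and -0.0427 for Gata6. With the first technical repeat alone it was -0.0542 for Sox9 and 0.1132 for Pdx1 in WT, 0.0374 for Sox9 in 6S-A, and 0.0917 for Sox9 and 0.0507 for Onecut2 in 6S-A against WT. Leaving out each replicate gave -0.0834 to 0.1315 for Sox9, -0.0021 to 0.282 for Gata6 and -0.1899 to 0.0264 for Hnf4a in WT, and -0.201 to 0.014 for Sox9 and -0.351 to 0.0133 for Gata6 in 6S-A. In 6S-A against WT it gave -0.1912 to 0.0166 for Hnf4a, -0.1894 to 0.0275 for Pdx1, -0.0366 to 0.3067 for Foxa2, -1.4108 to 0.1549 for Onecut1 and -0.4688 to 0.2913 for Onecut2. For Prox1 in WT at 8 days it gave -0.0636 to 0.4581. Of 639 values under other settings of 39 fold changes given in the text, 581 kept their direction and their side of the threshold, 18 lost the call, 19 gained it and 21 changed sign. The other 78 fold changes of members, which include the plotted 8-day values of Sox9, Gata6, Hnf4a and Onecut1, changed sign in 171 of 1508 values and lost or gained 0 calls. Depth limits Nkx6-1 and Onecut1, which had at most 13 and 34 reads in a 6S-A replicate at 2 days.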
